A study of Mus musculus with 39 samples.

Results

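The core circadian clock was followed as 10 genes, Arntl, Clock, Npas2, Per1, Per2, Per3, Cry1, Cry2, Nr1d1 and Dbp, out of 49585 genes counted by mRNA sequencing of mouse intestine. They were chosen by name, as the transcription factors, repressors and output factor of the clock, but with earlier results of these data known. All 10 had reads in each of the 39 libraries. The libraries came from intestinal tumours and the unaffected intestine around them in C57BL/6 mice, all carrying the Min mutation of Apc on 1 allele (Apc Min/+), which gives rise to intestinal adenomas. Wild-type Adam17 had 12 tumour and 4 non-tumour libraries. Mice with ADAM17 ex/ex, a hypomorphic allele of the protease that sheds ligands of the EGF receptor, TNF and the IL-6 receptor, had 17 tumour and 6 non-tumour libraries. The ex allele is not restricted to a cell type, so the epithelium, stroma and immune cells of a sample all carried it. The labels give neither age nor animal, so several libraries may share a mouse, and each p-value reflects the spread among libraries, part of which may be technical. They also do not give the time of day of sampling, and sampling time cannot be told apart from genotype or tissue in any difference described here.

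In the mammalian clock, ARNTL (also called BMAL1) pairs with CLOCK or its relative NPAS2 and activates genes through E-boxes. Their products PER and CRY return to the nucleus and repress this activation, while NR1D1 (REV-ERB alpha) represses Arntl and Npas2 transcription. DBP, an output factor, activates genes through D-boxes, among them the Per genes. In mouse peripheral tissues kept in light and dark cycles, Arntl and Npas2 peak around the time when Dbp and Nr1d1 transcripts are low, Per3 peaks close to Dbp, and Clock varies little. The intestine has such a clock in its epithelium, where feeding and glucocorticoids also act on it, the latter on Per1 directly.

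RefSeq promoters on GRCm38.p6, from 250 bases before to 50 bases after a transcript start, were at hand for 9 of the 10 genes (13 starts), Per2 being the gene with none. Both strands were searched for the E-box CACGTG, its variant CACGTT, the D-box TTANGTAA and the core motif AGGTCA bound by ROR and REV-ERB factors (ROR core). The 3 promoters printed below belong to a period gene with D-boxes and to the 2 genes whose window holds the full E-box. Capitals mark the matches, and each sequence runs 5′ to 3′ on the strand of its gene.
Per3 (chr4:151044616-151044915, minus strand, capitals D-boxes): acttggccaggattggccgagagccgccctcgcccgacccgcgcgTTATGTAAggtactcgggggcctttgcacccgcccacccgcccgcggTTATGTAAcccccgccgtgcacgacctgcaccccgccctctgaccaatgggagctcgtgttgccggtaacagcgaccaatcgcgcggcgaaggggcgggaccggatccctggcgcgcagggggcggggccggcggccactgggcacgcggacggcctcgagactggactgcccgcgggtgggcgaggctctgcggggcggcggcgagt
Cry1 (chr10:85185005-85185304, minus strand, capitals the E-box variant then the E-box): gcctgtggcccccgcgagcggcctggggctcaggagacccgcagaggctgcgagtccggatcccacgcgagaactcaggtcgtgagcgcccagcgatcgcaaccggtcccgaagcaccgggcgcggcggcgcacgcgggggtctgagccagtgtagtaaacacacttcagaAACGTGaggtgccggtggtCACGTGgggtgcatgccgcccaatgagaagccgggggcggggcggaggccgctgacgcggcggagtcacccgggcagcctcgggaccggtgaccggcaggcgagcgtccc
Per1, first start (chr11:69098699-69098998, plus strand, capitals the E-box then the ROR core): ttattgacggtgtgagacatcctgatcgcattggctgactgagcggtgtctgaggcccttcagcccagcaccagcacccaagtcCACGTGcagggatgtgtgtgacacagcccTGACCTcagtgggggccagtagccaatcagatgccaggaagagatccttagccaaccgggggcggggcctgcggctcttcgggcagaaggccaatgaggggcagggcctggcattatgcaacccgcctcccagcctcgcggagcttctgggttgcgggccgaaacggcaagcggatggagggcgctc

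Per3 held the D-box at bases -205 to -198 and again at -158 to -151 from the start, a motif found in 2.32% of 32851 mouse promoters of this length. Cry1 held the E-box at -60 to -55 and the variant at -79 to -74. Per1 held the E-box at -166 to -161 and the ROR core at -137 to -132. The E-box occurs in 7.15% of the promoters, the variant in 4.68% and the ROR core in 16.3%. The variant was also present at Cry2 (-166 to -161) and Nr1d1 (-28 to -23), and the ROR core at the second start of Arntl (32 to 37) and the third of Clock (-119 to -114). No match lay in the windows of Dbp and Npas2. A match is a description of letters and does not show that a factor binds there.

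The libraries held 5668185 to 11112321 gene counts, except for wild-type non-tumour replicate 1 with 438639. Levels are given as CPM (counts-per-million) after TMM scaling, and 1 count in the shallow library equals 6.04 CPM, so that its Arntl value rests on 3 counts. Its RNA also stood apart, with 21.1% of gene counts from mitochondrial genes (1.83% to 4.95% in the other 38 libraries), 34.8% from the single gene Gm42418 (0.0900% to 3.52%), 56.5% alignments that were not unique (29.1% to 37.6%) and a TMM factor of 0.377 (0.716 to 1.43). Among those 38 the share of Gm42418 differed along genotype, at 0.113% to 0.357% in ex/ex and 0.0900% to 3.52% in wild type. Adam17 was at 38.4 to 85.8 CPM in 15 wild-type libraries and at 9.65 to 33.5 CPM in the 23 ex/ex libraries, but the shallow library held 1 Adam17 count and goes against its label. Epithelial markers were present in every library, at 433 to 19615 summed CPM for 6 genes. B cell markers split the tumours: their summed level was 18.9 to 168 CPM in 9 wild-type tumours and 2086 to 3999 in the other 3, and 29.3 to 429 CPM in 2 ex/ex tumours and 1690 to 4693 in the other 15. Non-tumour libraries had 37.7 to 121 CPM. Of the 11 B cell genes 11 rose in ex/ex tumours (against 23.8% of all genes tested) and 1 in wild-type tumours (against 1.9%) relative to their surroundings, and 3 were higher in ex/ex than in wild-type tumours (against 15.2%). Of 6 proximal intestine markers 5 fell in ex/ex tumours (against 23.3%), and of 5 distal ones 3 rose (against 23.8%). No gene of these lists was at 0 in all libraries of a group, and their part in the results was not tested beyond the covariate fits given with them. Among the ex/ex libraries, tumour replicates 1 to 3 and non-tumour replicates 1 and 2 expressed the Y-linked gene Ddx3y (33.9 to 44.1 CPM), and no wild-type library did so above 0.202 CPM. Wild-type non-tumour replicate 4 stood apart with 1026 CPM of endothelial markers and 1153 CPM of red blood cell genes. A lower level in bulk tissue can come from fewer cells of a type or from less RNA per cell, and these cannot be told apart.

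**Figure D1:**
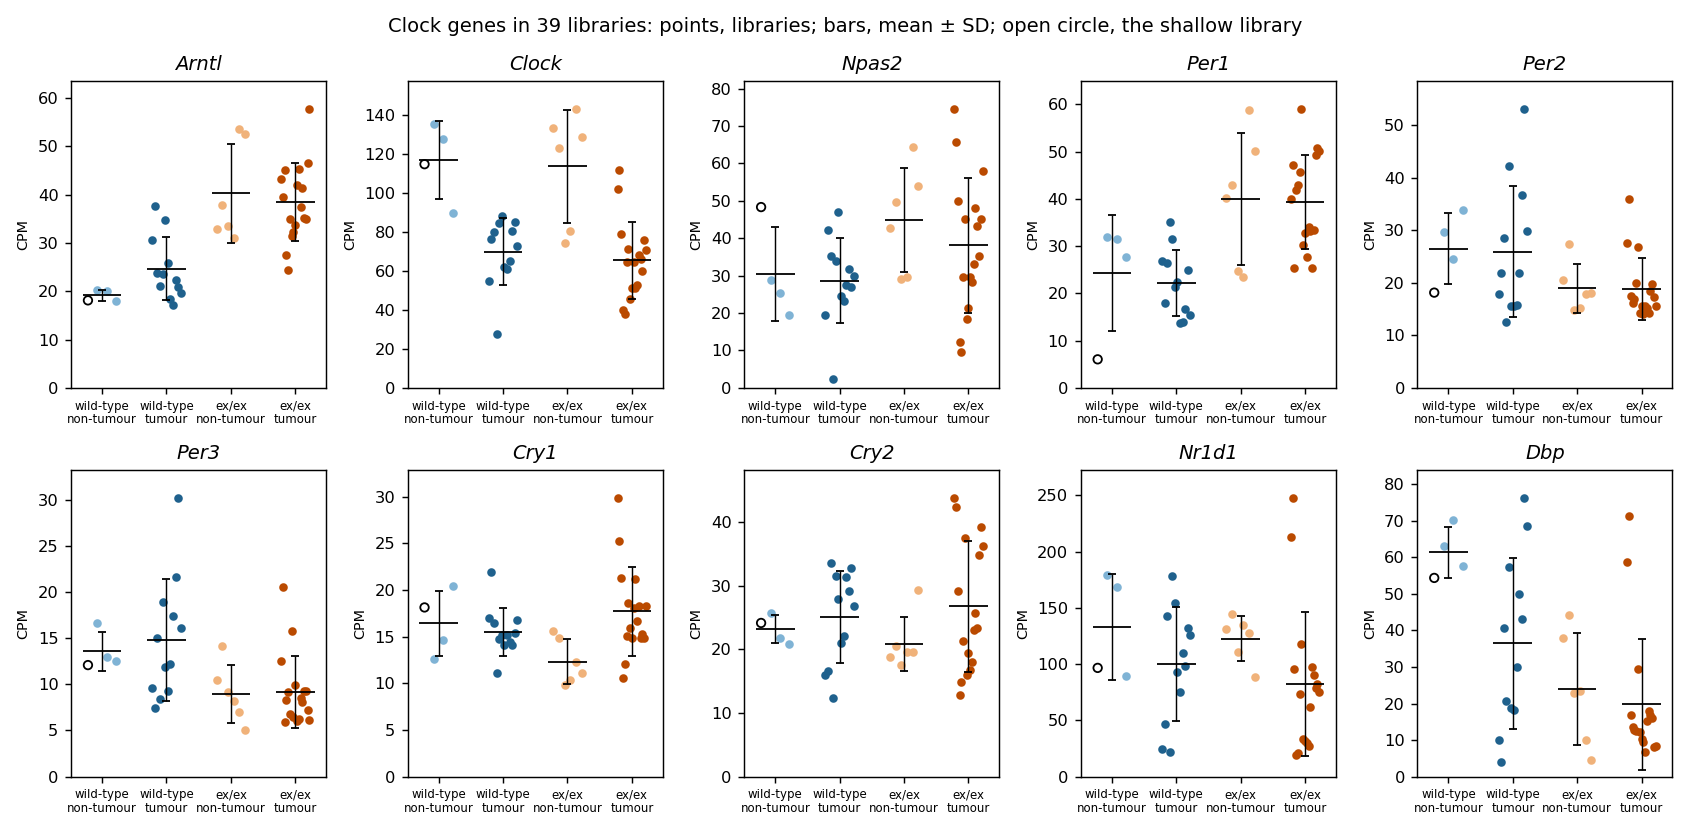
CPM of the 10 clock genes on linear axes from 0, 1 point per library, in the 4 groups; bars give the mean ± SD and the open circle is the shallow wild-type non-tumour library. The 6 ex/ex non-tumour libraries lie above the 4 wild-type ones for Arntl and below them for Dbp, and tumours of both genotypes lie mostly below non-tumour tissue for Clock.

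The counts of clock genes that differed between groups were read against the share of all 16327 genes tested that did. Between wild-type tumours and their surroundings 0 of 10 rose (1.9% of all genes), 1 fell (3.15%), and 5.05% of all genes were called in either direction. Clock was the gene that fell, and the one member whose groups did not overlap, as was so for 1.89% of all genes. Between ex/ex tumours and their surroundings 1 rose (Cry1, against 23.8% of all genes) and 1 fell (Clock, against 23.3%), with 47.1% called in all. There 0 of 10 had groups without overlap, against 4.52% of all genes. Between genotypes in tumours 2 rose (Arntl and Per1, against 15.2%) and 2 fell (Per2 and Per3, against 18%), with 33.3% called in all and groups without overlap in 0 of 10 against 0.288%. Between genotypes in non-tumour tissue 1 rose (Arntl, against 0.398%) and 0 fell (against 1.02%), with 1.42% called in all. Arntl and Dbp, 2 of 10, had groups without overlap there, against 2.77%. The interaction of genotype and tissue called 0 of 10, against 0.202% of all genes. For the interaction 1 member had an unadjusted p under 0.05 in edgeR and 1 in DESeq2, which called 0, and limma-voom with quality weights called 1. The median log2 fold change of the 10 genes and that of all genes were -0.08 and 0.07 for wild-type tumours, -0.05 and -0.03 for ex/ex tumours, -0.003 and -0.01 for genotype in tumours, and -0.14 and 0.03 for genotype in non-tumour tissue. Each group enters more than 1 of these comparisons, so their values are not independent.

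Arntl, the obligatory partner in the activating pair, was the one clock gene of the 10 that passed the test between genotypes in both tissues (ENSMUSG00000055116.8, chromosome 7, 113207465 to 113314126, plus strand, GRCm38). The 4 wild-type non-tumour libraries had 18.1, 20.3, 20.1 and 18.1 CPM in replicate order. The 6 ex/ex non-tumour libraries had 32.9, 37.9, 33.5, 31.0, 53.7 and 52.6 CPM. Every ex/ex value was higher than every wild-type value. The shallow library lay with the other 3, but its value is 3 counts and adds little. Wild-type tumours ranged from 17.1 to 37.7 CPM with a median of 23.0, and ex/ex tumours from 24.3 to 57.8 with a median of 37.5. The ranges overlapped in tumours, where wild-type replicates 1, 2 and 6 reached 30.7, 37.7 and 34.7 CPM. By mean the order was wild-type non-tumour (19.1 ± 1.21, SD, n = 4), wild-type tumour (24.7 ± 6.47, n = 12), ex/ex tumour (38.4 ± 8.06, n = 17) and ex/ex non-tumour (40.3 ± 10.2, n = 6). The last pair differed by less than its spread.

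Against wild type, Arntl rose in ex/ex non-tumour tissue by a log2 fold change of 1.06 ± 0.23 (SE, adjusted p = 0.00699) and in ex/ex tumours by 0.64 ± 0.12 (adjusted p = 1.29e-04). Both values are from the quasi-likelihood test of edgeR, adjusted for the 16327 genes tested. The non-tumour call rests on a small wild-type group: without wild-type non-tumour replicate 4 the adjusted p was 0.0634, and without replicates 1 and 4 the fold change was 0.995 with an adjusted p of 0.22. Among B cell-rich tumours alone (3 wild-type and 15 ex/ex), a subset chosen after seeing the data, the fold change was 0.54 with an adjusted p of 0.18. In a fit of the 2 non-tumour groups alone the value was 1.03 (adjusted p = 0.0816).

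Markers of other cell types differed in the same comparisons. All 5 red blood cell genes (Hbb-bs, Hbb-bt, Hba-a1, Hba-a2 and Alas2) were lower in ex/ex in non-tumour tissue, against 1.02% of all genes, and in tumours, against 18%, by edgeR's test. Reads of the near-identical Hba-a1 and Hba-a2 cannot be assigned with certainty. The summed level of the 5 genes was 60.4 to 1153 CPM in wild-type and 9.26 to 28.4 CPM in ex/ex non-tumour tissue, and 29.1 to 253.7 CPM in wild-type and 2.83 to 15.9 CPM in ex/ex tumours, without overlap in either tissue. In tumours 5 of 6 endothelial and 3 of 6 smooth muscle genes were also lower in ex/ex. Their summed levels overlapped there, at 85.5 to 286 CPM in wild type and 50.6 to 137 CPM in ex/ex for endothelium, and at 317 to 2343 and 192 to 2728 CPM for smooth muscle. In tumours 2 of 6 epithelial and 3 of 6 proximal genes were lower in ex/ex (against 18% of all genes). Of 6 proliferation genes 3 were higher (against 15.2%), and of 6 enterocyte genes 0 rose and 0 fell. The summed epithelial level had a median of 13285 CPM in wild-type and 7697 CPM in ex/ex tumours, with ranges that overlapped. The part of these lists in the differences of the clock genes was not tested beyond the covariate fits given with single genes.

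Clock (ENSMUSG00000029238.11, chromosome 5, 76209868 to 76304792, minus strand) was lower in tumours than in their surroundings. It stood at 115, 135, 128 and 89.6 CPM in wild-type non-tumour tissue and at 133, 123, 74.2, 80.4, 143 and 129 CPM in that of ex/ex. Wild-type tumours ranged from 27.5 to 88.4 CPM with a median of 74.7, all below the non-tumour values. Ex/ex tumours ranged from 38.002 to 112 CPM with a median of 64.7, and overlapped with their surroundings. Clock fell by 0.74 ± 0.23 on the log2 scale in wild-type tumours (edgeR, adjusted p = 0.0486) and by 0.80 ± 0.18 in ex/ex tumours (adjusted p = 7.55e-04). The wild-type call sits at the threshold and was lost in 22 of 39 fits that each left out 1 library (adjusted p 0.0507 to 0.193). With the B cell list as a covariate the ex/ex fold change was -0.14 with an adjusted p of 0.644, and with the proximal and distal lists as covariates (position covariates) it was -0.57 (adjusted p = 0.0707). The mean log2 CPM of the B cell list was 0.77 to 2.36 in ex/ex non-tumour tissue and 7.07 to 8.55 in the 15 B cell-rich ex/ex tumours. This covariate thus nearly follows tissue in ex/ex, and fits that use it separate it only weakly from tissue there. Between genotypes the log2 fold changes of -0.04 ± 0.26 in non-tumour tissue and -0.09 ± 0.15 in tumours did not pass the test, though the latter was 0.43 with the B cell covariate (adjusted p = 0.0427) and -0.33 by limma-voom with quality weights (adjusted p = 0.00237).

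Npas2 (ENSMUSG00000026077.15, chromosome 1, 39193731 to 39363236, plus strand), which can replace CLOCK in the pair, varied widely within tumours. Wild-type non-tumour tissue had 48.3, 28.7, 25.4 and 19.4 CPM, the first being 8 counts, and ex/ex non-tumour tissue 42.9, 49.7, 29.02, 29.5, 64.4 and 54.0 CPM. Wild-type tumours ran from 2.42 to 46.9 CPM with a median of 28.7, and ex/ex tumours from 9.70 to 74.6 CPM with a median of 35.3. The groups overlapped in every comparison. The ex/ex fold change of 0.72 ± 0.50 in non-tumour tissue (adjusted p = 0.726) and 0.41 ± 0.27 in tumours (adjusted p = 0.242) did not pass edgeR's test. With the mean level of epithelial markers as a covariate, chosen after seeing the data, the values were 0.93 (adjusted p = 0.0126) and 0.80 (adjusted p = 4.81e-06). With the B cell covariate the tumour value was 1.17 (adjusted p = 0.00997).

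Among the repressors, Per1 was the period gene with the larger level in ex/ex tumours (ENSMUSG00000020893.17, chromosome 11, 69095217 to 69109960, plus strand). Wild-type tumours ranged from 13.7 to 35.1 CPM with a median of 21.95, and ex/ex tumours from 25.4 to 59.0 CPM with a median of 40.1. The groups overlapped between 25.4 and 35.1 CPM. Per1 rose in ex/ex tumours by 0.82 ± 0.17 (edgeR, adjusted p = 2.64e-04), and among B cell-rich tumours alone the value was 0.44 (adjusted p = 0.424). Non-tumour tissue had 6.04, 32.0, 31.6 and 27.8 CPM in wild type and 40.1, 42.9, 24.8, 23.4, 58.8 and 50.2 CPM in ex/ex. The difference there, 0.54 ± 0.29, did not pass the test (adjusted p = 0.556). The lowest of these values is the single count of the shallow library.

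Per2 and Per3 ran the other way in tumours. Per2 (ENSMUSG00000055866.9, chromosome 1, 91415982 to 91459324, minus strand) ranged from 12.5 to 53.1 CPM in wild-type tumours, median 21.9, and from 14.1 to 35.9 CPM in ex/ex tumours, median 16.97. It fell by 0.46 ± 0.18 (edgeR, adjusted p = 0.0443), a call lost in 18 of 39 fits without 1 library, with adjusted p from 0.0517 to 0.151. Per3 (ENSMUSG00000028957.12, chromosome 4, 151003652 to 151044665, minus strand) ranged from 7.41 to 30.2 CPM in wild-type tumours, median 13.6, and from 5.88 to 20.6 CPM in ex/ex tumours, median 8.26. It fell by 0.69 ± 0.20 (adjusted p = 0.00759). Both groups overlapped for both genes. With the B cell list as a covariate the fold changes were 0.18 for Per2 (adjusted p = 0.524) and -0.02 for Per3 (adjusted p = 0.969). With position covariates they were -0.23 (adjusted p = 0.488) and -0.49 (adjusted p = 0.118).

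In non-tumour tissue the same genes gave values that did not pass the test. Per2 was at 18.1, 29.6, 24.5 and 33.8 CPM in wild type and at 20.6, 27.3, 14.7, 15.2, 17.8 and 18.0 CPM in ex/ex (-0.56 ± 0.32, adjusted p = 0.596 by edgeR). Per3 was at 12.1, 16.6, 13.01 and 12.5 CPM in wild type and at 10.5, 14.2, 9.16, 8.19, 6.97 and 5.01 CPM in ex/ex (-0.63 ± 0.36, adjusted p = 0.600). The lower end of both lists belonged to ex/ex libraries, and the ranges overlapped.

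The cryptochromes are partners of the period proteins. Cry1 (ENSMUSG00000020038.10, chromosome 10, 85131700 to 85185064, minus strand) was at 15.6, 14.8, 9.78, 10.4, 12.2 and 11.1 CPM in ex/ex non-tumour tissue and between 10.6 and 29.9 CPM, median 16.6, in ex/ex tumours. It rose in these tumours by 0.52 ± 0.16 (edgeR, adjusted p = 0.00690). In wild type the tumours ran from 11.1 to 21.98 CPM and their surroundings had 18.1, 12.6, 14.7 and 20.4 CPM, a fold change of -0.05 ± 0.20. The difference between these tumour effects, 0.57 ± 0.25, had an unadjusted p of 0.0267 and an adjusted p of 0.31, so a difference between the genotypes was not shown. Cry2 (ENSMUSG00000068742.11, chromosome 2, 92403646 to 92434043, minus strand) passed in no comparison by edgeR. With the B cell covariate it was called higher in ex/ex tumours than in their surroundings (1.13, adjusted p = 6.64e-04) and than in wild-type tumours (0.73, adjusted p = 0.00549). That covariate nearly follows tissue in ex/ex, as described for Clock. The range of Cry2 was 12.4 to 33.6 CPM in wild-type tumours and 12.9 to 43.9 CPM in ex/ex tumours, around 20.9 to 25.8 CPM in wild-type and 17.5 to 29.3 CPM in ex/ex non-tumour tissue.

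Nr1d1, the repressor of Arntl, had the highest level per length of the 10 genes in each group (ENSMUSG00000020889.11, chromosome 11, 98767932 to 98775333, minus strand). Non-tumour tissue had 96.7, 179, 168 and 89.1 CPM in wild type and 131, 144, 110.5, 134, 127 and 88.4 CPM in ex/ex. Tumours spread far more, from 22.2 to 178 CPM with a median of 104 in wild type and from 18.9 to 248.1 CPM with a median of 75.1 in ex/ex. No comparison of Nr1d1 passed edgeR's test, with log2 fold changes between -0.58 ± 0.40 and -0.14 ± 0.57. In ex/ex tumours its direction depended on the setting. Against their surroundings it was -0.98 without the 2 B cell-poor ex/ex tumours (adjusted p = 0.0162), left out after seeing the data, and -1.06 by limma-voom (adjusted p = 3.99e-04), but 0.81 with the B cell covariate (adjusted p = 0.147) and 0.60 with position covariates (adjusted p = 0.325). Against wild-type tumours it was -0.69 without the same 2 libraries (adjusted p = 0.0485), -0.76 without the 5 libraries with Y-linked expression (adjusted p = 0.0360) and -0.85 by limma-voom (adjusted p = 0.00171). There the B cell covariate turned it to 0.89 (adjusted p = 0.0376), and it was 0.42 among B cell-rich tumours alone (adjusted p = 0.716) and 0.29 with position covariates (adjusted p = 0.584).

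Dbp, the D-box activator, was the other gene of the 10 whose genotypes did not overlap in non-tumour tissue, with the lower values in ex/ex (ENSMUSG00000059824.12, chromosome 7, 45705088 to 45710203, plus strand). Wild-type libraries had 54.4, 63.0, 70.3 and 57.7 CPM, and ex/ex libraries 37.9, 44.1, 23.0, 23.5, 10.1 and 4.46 CPM. Replicates 5 and 6, with the highest Arntl values of the ex/ex group, had the lowest Dbp, while replicate 2, next in Arntl, had the highest Dbp. Wild-type tumours spanned 4.02 to 76.4 CPM with a median of 35.4. Ex/ex tumour replicates 1 and 2 had 58.7 and 71.4 CPM, and the other 15 lay between 6.85 and 29.3 CPM. The genotype difference was -1.38 ± 0.64 in non-tumour tissue (edgeR, adjusted p = 0.421) and -0.89 ± 0.37 in tumours (adjusted p = 0.0596), and neither passed. The tumour difference was called in 6 of 39 fits without 1 library (adjusted p 0.00935 to 0.0485). It also passed with DESeq2 (-0.86, adjusted p = 0.0470). Without the 5 ex/ex libraries with Y-linked expression, which include the high pair, it was -1.43 (adjusted p = 6.51e-04). Without the 3 B cell-rich wild-type tumours it was -1.10 (adjusted p = 0.0134), and without the 2 B cell-poor ex/ex tumours, the same high pair, -1.40 (adjusted p = 7.27e-04). With the B cell covariate it turned to 0.27 (adjusted p = 0.613), and it was -0.25 among B cell-rich tumours alone (adjusted p = 0.714) and -0.43 with position covariates (adjusted p = 0.447).

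**Figure D2:**
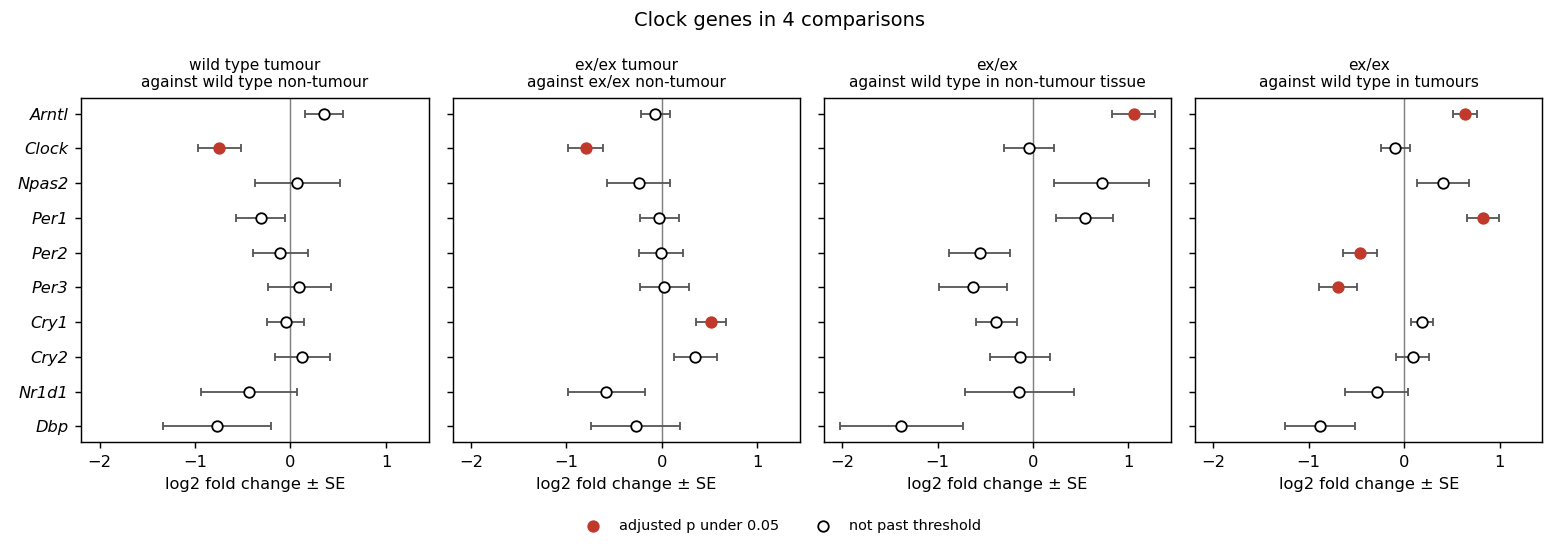
Log2 fold change ± SE (x axis) of the 10 clock genes (y axis) in 4 comparisons; filled points passed an adjusted p of 0.05 in edgeR's test over all genes and open points did not. Arntl is filled in both genotype comparisons, Per1, Per2 and Per3 in the tumour panel, Clock in both tumour comparisons and Cry1 in the ex/ex tumour comparison, and the tests of the differences between panels passed for none.

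By mean level per kilobase of exon, the order of the members differed in part between genotypes. Nr1d1 had rank 1 in all 4 groups, at 43.3 ± 15.2 CPM per kilobase in wild-type and 39.9 ± 6.55 in ex/ex non-tumour tissue. Per3 had rank 10 in all 4, at 1.41 ± 0.216 and 0.936 ± 0.327. Dbp had rank 2 in both wild-type groups (20.5 ± 2.32 in non-tumour tissue, 12.2 ± 7.80 in tumours) and rank 4 in both ex/ex groups (7.97 ± 5.12 and 6.62 ± 6.00). Arntl had rank 9 in wild type (2.54 ± 0.161 and 3.28 ± 0.861) and rank 6 in ex/ex (5.35 ± 1.36 and 5.11 ± 1.07). Neighbours in the middle of the order, such as Cry1 and Per2 at 4.92 ± 1.04 and 4.53 ± 1.15 in wild-type non-tumour tissue, did not differ beyond their spread. The same holds for the ex/ex ranks of Dbp and Arntl. In non-tumour tissue Clock was next to Dbp at 8.29 ± 2.12, and in tumours Cry1 was next to Arntl at 5.30 ± 1.41.

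The log2 ratio of Arntl to Dbp sums up the opposite levels of an activator and an output gene within 1 library, and is given as a description. It ranged from -1.81 to -1.58 in the 4 wild-type non-tumour libraries. In ex/ex non-tumour tissue it ranged from -0.22 to 3.56 with a median of 0.47. Wild-type tumours covered -1.86 to 3.23 with a median of -0.74, and ex/ex tumours -0.85 to 2.81 with a median of 1.30. Wild-type surroundings were thus narrow and on the Dbp side, ex/ex surroundings lay wholly above them, and both tumour groups were wide. The separation in non-tumour tissue follows from that of Arntl and of Dbp given above and adds no support to it. The narrow range is that of 4 libraries, and the value of the shallow one rests on 3 Arntl and 9 Dbp counts.

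**Figure D3:**
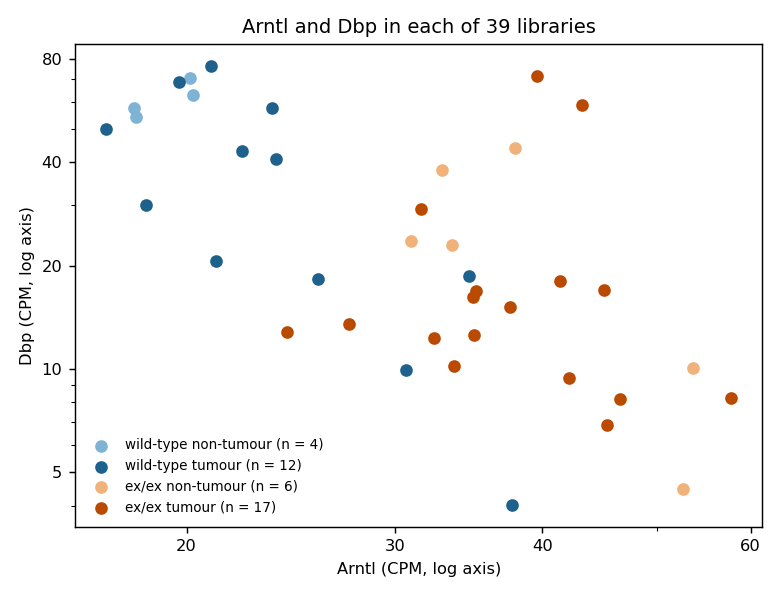
Dbp (y axis) against Arntl (x axis), both in CPM on log axes, 1 point per library in 4 colours for the groups. The 4 wild-type non-tumour libraries sit together at 18.1 to 20.3 CPM of Arntl and 54.4 to 70.3 CPM of Dbp, and ex/ex non-tumour replicates 5 and 6 lie at the opposite corner with 53.7 and 52.6 CPM of Arntl and 10.1 and 4.46 CPM of Dbp.

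Variation between libraries of 1 group also differed among the members. The pooled within-group SD of log2 CPM was 1.04 for Dbp, 0.94 for Nr1d1 and 0.85 for Npas2, above the median of 0.60 over all genes tested and higher than in 85.4%, 79.7% and 72.6% of them. It was lowest for Cry1 (0.31) and Arntl (0.31), at the percentiles 20.7 and 21.8. Dbp varied 1.29-fold among wild-type non-tumour libraries, 9.88-fold among ex/ex non-tumour libraries, 19.0-fold among wild-type tumours and 10.4-fold among ex/ex tumours.

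Some clock genes varied together from tumour to tumour. Over all tumours of a genotype, 14 of 45 pairs passed an adjusted p of 0.05 (permutation test of Pearson's r, adjusted over 90 relations) in wild type, 13 positive and 1 negative, and 26 of 45, all positive, in ex/ex. Because B cell content splits the tumours into clusters, r is given within sets chosen after seeing the data. These are the 9 wild-type tumours poor in B cell genes and the 15 ex/ex tumours rich in them. B cell genes still varied inside them, from 18.9 to 168 and from 1690 to 4693 summed CPM. In the 15 their mean log2 CPM ran from 7.07 (replicate 17) to 8.55 (replicate 8), where Npas2 was at 5.87 and 4.23. The part of this variation in the correlations was not tested. In these sets 4 and 12 pairs passed, all positive. The share of pairs of other genes that pass in the same tumours was not computed. The counts therefore do not show a trait particular to clock genes.

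In the 15 ex/ex tumours the tightest pair was Clock and Npas2, the alternative partners of Arntl (r = 0.94, permutation adjusted p = 9.00e-04; rho = 0.93, adjusted p = 0.00180; r = 0.87 without the 2 farthest libraries). Npas2 and Nr1d1 followed (r = 0.88, permutation adjusted p = 9.00e-04; rho = 0.84, adjusted p = 0.00225; r = 0.81 without 2). Cry2 went with Nr1d1 (r = 0.87, permutation adjusted p = 9.00e-04; rho = 0.85, adjusted p = 0.00225; r = 0.86 without 2). Arntl went with Npas2 at r = 0.78 (permutation adjusted p = 0.00643; rho = 0.68, adjusted p = 0.0638; r = 0.62 without 2). Per3 and Dbp had r = 0.68 (permutation adjusted p = 0.0328), but rho was 0.44 with an adjusted p of 0.299. The other 7 pairs had r from 0.68 to 0.86 and joined Clock, Npas2, Cry2, Nr1d1, Arntl and Cry1, apart from Per1 with Per2. By rho 4 of the 7 did not pass, namely Arntl with Clock (rho = 0.61, permutation adjusted p = 0.130), Arntl with Cry1 (0.53, 0.212), Npas2 with Cry1 (0.58, 0.135) and Per1 with Per2 (0.61, 0.125). Of these, Npas2 with Cry1 went from r = 0.72 to 0.33 without the 2 farthest libraries and so rests on them.

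In the 9 wild-type tumours Arntl and Npas2 were the tightest pair (r = 0.92, exact permutation adjusted p = 0.00783; rho = 0.90, adjusted p = 0.0261; r = 0.80 without 2). Per3 and Dbp had r = 0.88 (exact permutation adjusted p = 0.00783; rho = 0.85, adjusted p = 0.0638; r = 0.72 without 2). Cry2 with Nr1d1 had r = 0.88 (exact permutation adjusted p = 0.0328; rho = 0.67, adjusted p = 0.241), which fell to 0.17 without the 2 farthest libraries and so rests on them. Per3 with Cry2 had r = 0.81 (exact permutation adjusted p = 0.0371) and rho = 0.63 (adjusted p = 0.263). The inverse relation of Arntl and Dbp did not pass: r was -0.80 in the 9 wild-type tumours (exact permutation adjusted p = 0.0550; rho = -0.55, adjusted p = 0.341) and 0.11 without 2 libraries. In the 15 ex/ex tumours r was -0.45 (permutation adjusted p = 0.196; rho = -0.40, adjusted p = 0.342).

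**Figure D4:**
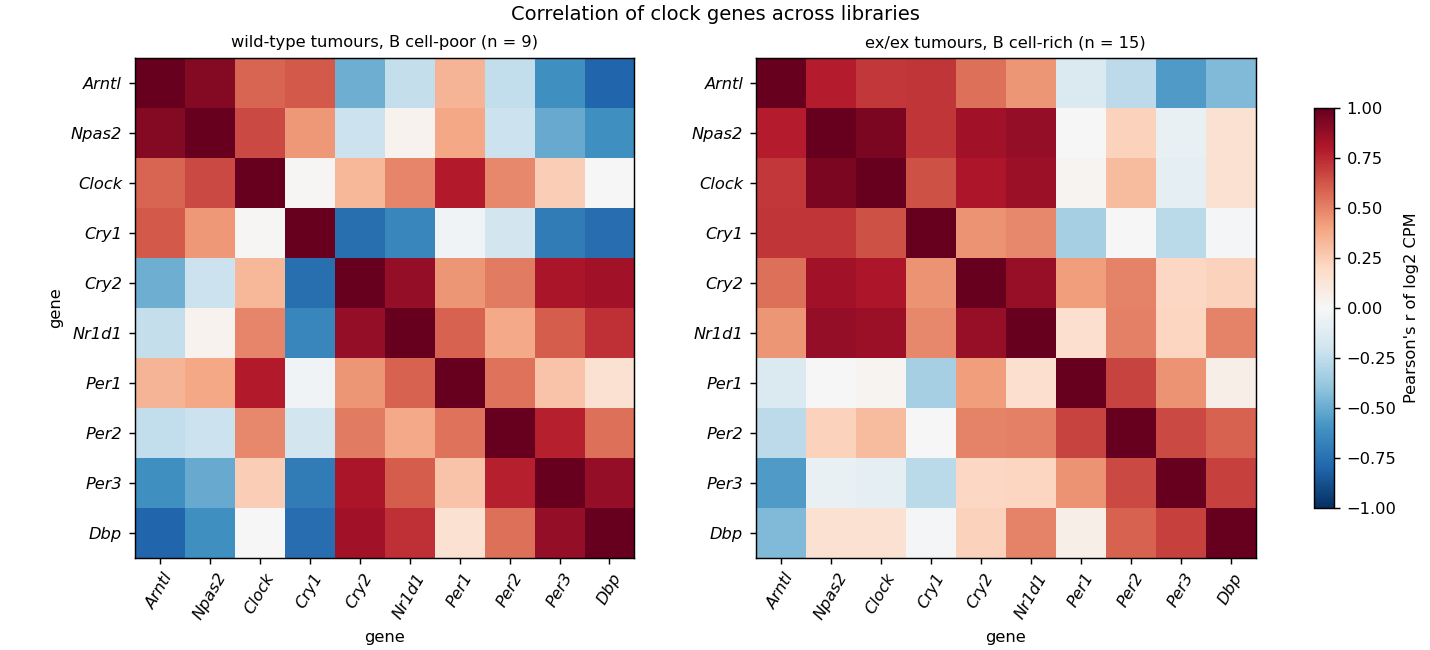
Pearson's r of log2 CPM for each pair of the 10 clock genes, as colour from -1 (blue) to 1 (red), in 9 wild-type tumours poor in B cell genes (left) and 15 ex/ex tumours rich in them (right). In ex/ex the block of Arntl, Npas2, Clock, Cry1, Cry2 and Nr1d1 is positive. In wild type Arntl and Dbp have r = -0.80, which did not pass (exact permutation adjusted p = 0.0550) and was 0.11 without the 2 farthest libraries.

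Several of these genes varied with the epithelial markers of the samples. In the 15 ex/ex tumours the mean log2 CPM of the epithelium list (Epcam, Vil1, Cdx2, Krt8, Krt20 and Cdh1) correlated with Npas2 at r = 0.97 (permutation adjusted p = 6.00e-04 over 240 relations; rho = 0.92, adjusted p = 4.80e-04; r = 0.92 without the 2 farthest libraries). Clock had r = 0.95 (permutation adjusted p = 6.00e-04; rho = 0.91, adjusted p = 4.80e-04; r = 0.88 without 2). Nr1d1 had r = 0.88 (permutation adjusted p = 6.86e-04; rho = 0.83, adjusted p = 0.00480; r = 0.79 without 2). Nr1d1 was closer still to the enterocyte list of absorptive cell genes, with r = 0.97 in ex/ex (permutation adjusted p = 6.00e-04; rho = 0.95, adjusted p = 4.80e-04; r = 0.95 without 2). Dbp (r = 0.18) and Per3 (r = -0.09) did not follow the epithelium list there, with permutation adjusted p of 0.685 and 0.850. The B cell and proliferation lists also changed along this range. Replicate 5, lowest of the 15 in the epithelium list (8.10), had means of 8.48 for B cell and 7.37 for proliferation genes. Replicate 3, the highest (10.46), had 7.11 and 5.50. The relations to epithelial markers were not separated from these lists.

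In the 9 wild-type tumours Clock had r = 0.84 with the epithelium list (exact permutation adjusted p = 0.0321; rho = 0.80, adjusted p = 0.0738) and 0.37 without the 2 farthest libraries, on which it rests. Npas2 had r = 0.54 (exact permutation adjusted p = 0.282), which did not pass. Nr1d1 had r = 0.92 with the enterocyte list (exact permutation adjusted p = 0.00905; rho = 0.83, adjusted p = 0.0532) and 0.66 without 2. The lowest Npas2 value of all, 2.42 CPM, belonged to wild-type tumour replicate 4, which had the lowest summed epithelial level, 433 CPM. What part epithelial content has in the differences between groups was not tested beyond the covariate fits above.

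**Figure D5:**
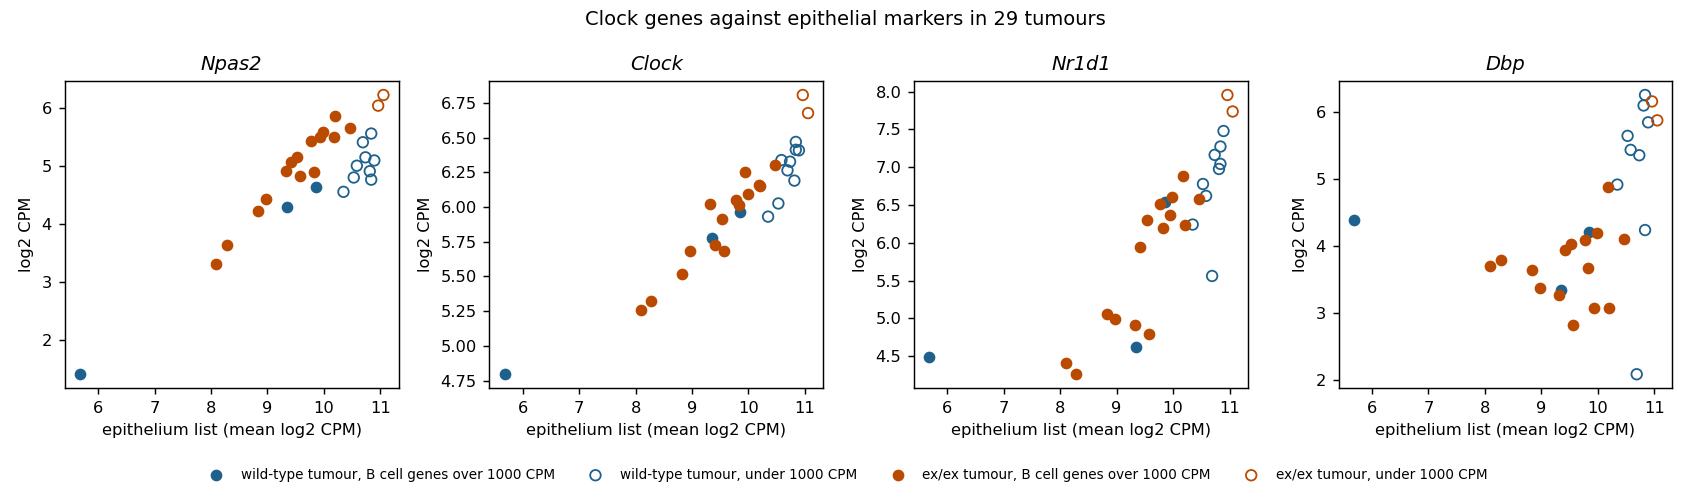
Log2 CPM of Npas2, Clock, Nr1d1 and Dbp (y axes) against the mean log2 CPM of 6 epithelial markers (x axis) in 29 tumours; filled points had over 1000 summed CPM of B cell genes and open points less. Npas2 and Clock climb with the epithelial level (r = 0.97 and 0.95 in the 15 filled ex/ex tumours), and Dbp does not (r = 0.18).

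Per1 went with a list of 4 glucocorticoid targets (Fkbp5, Tsc22d3, Sgk1 and Zbtb16) in both genotypes. In the 15 ex/ex tumours r was 0.80 (permutation adjusted p = 0.00495; rho = 0.76, adjusted p = 0.0206), and 0.77 without the 2 farthest libraries. In the 9 wild-type tumours r was 0.83 (exact permutation adjusted p = 0.0377; rho = 0.77, adjusted p = 0.0987), and 0.64 without 2. The summed level of the list was highest in ex/ex non-tumour replicates 5 and 6 (2468 and 1822 CPM) and ex/ex tumour replicates 7, 15, 16 and 17 (1422 to 1530 CPM). Per1 stood at 49.3 to 59.0 CPM in these 6 libraries. Between genotypes in tumours 1 of the 4 listed genes rose (against 15.2% of all genes) and 1 fell (against 18%).

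Genes whose pattern was most like that of Arntl and Dbp were found with Spearman's rho over 38 libraries, without the shallow one, after centring each group on its mean. Among 12575 genes Dbp was closest to Eepd1 (rho = 0.93), Tef (0.90), Slc23a2 (0.88), Nat8f5 (0.87), Paqr7 (0.86) and Por (0.86). Tef encodes a PAR bZIP factor related to DBP, and Por the electron donor of microsomal P450 enzymes. Per3 came in place 9 for Dbp (0.84) and Nr1d2, which encodes REV-ERB beta, came in place 61 (0.78). Among the most opposite to Dbp were Glipr2 (-0.90), Slc45a4 (-0.84), Trp53inp1 (-0.84), Zdhhc20 (-0.82) and Ccnt1 (-0.80).

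Arntl was closest to the monocarboxylate transporter gene Slc5a8 (rho = 0.77), the efflux transporter gene Abcg2 (0.76), Insig2 (0.75), Edem1 (0.75), Camk1d (0.74) and Mier3 (0.74). Among its most opposite genes were Fads1 (-0.71), Ephx4 (-0.71), Scarb1 (-0.69), Cttnbp2 (-0.67) and Gys1 (-0.66). Of the clock list, Nfil3, whose product represses through D-boxes, was in place 23 for Arntl (0.67) and Npas2 in place 85 (0.59). Dbp was at -0.50. Tissue composition varied within the groups, with summed B cell levels of 18.9 to 3999 CPM in wild-type and 29.3 to 4693 CPM in ex/ex tumours. Centring on group means does not remove this, and its part in the rho values was not tested. The values describe likeness in these samples only.

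Of 20 further clock genes, listed with earlier results known, 19 were tested, and their changes are described here by role. In wild-type tumours against non-tumour tissue 1 rose and 3 fell, against 1.9% and 3.15% of all genes. Nfil3 rose by 1.29 ± 0.38 (edgeR, adjusted p = 0.0402). Hlf, a PAR bZIP relative of Dbp, fell by 1.72 ± 0.39 on the log2 scale (adjusted p = 0.00638), from 20.3 ± 3.72 CPM (SD, n = 4) to 5.96 ± 2.97 CPM (n = 12) without overlap. Wee1, a cell cycle kinase under E-box control, fell by 0.82 ± 0.21 and Nampt, an enzyme of NAD synthesis, by 0.52 ± 0.10. The call of Nfil3 was lost in 7 and that of Wee1 in 3 of 39 fits without 1 library, and with position covariates Hlf was at -0.93 (adjusted p = 0.144) and Nfil3 at 0.57 (adjusted p = 0.327).

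In ex/ex tumours 2 of the 19 rose and 5 fell, against 23.8% and 23.3% of all genes (47.1% in all), so that the share called in this list was not above that of all genes. The E-box repressor gene Bhlhe41 rose by 2.62 ± 0.76 (edgeR, adjusted p = 0.00535) and the repressor gene Ciart by 1.14 ± 0.38 (adjusted p = 0.0130), the latter between low levels of 0.488 ± 0.332 CPM (SD, n = 6) and 1.095 ± 0.431 CPM (n = 17). Nr1d2 fell by 0.65 ± 0.20, Hlf by 1.095 ± 0.31, Usp2 by 0.99 ± 0.26, Wee1 by 0.59 ± 0.17 and Nampt by 0.33 ± 0.08. Hlf, Wee1 and Nampt were called lower in the tumours of both genotypes, but the Wee1 call in ex/ex was lost in 1 of 39 fits without 1 library (adjusted p = 0.0529). In wild-type tumours Nr1d2 was at -0.80 ± 0.25 (edgeR, adjusted p = 0.0555) and Usp2 at -1.04 ± 0.33 (adjusted p = 0.0582), just short of the threshold. Their fall is thus not particular to ex/ex. With the B cell covariate Nr1d2 was at 0.06 (adjusted p = 0.868), Hlf at -0.48 (adjusted p = 0.402) and Usp2 at -0.15 (adjusted p = 0.770), and with position covariates Bhlhe41 was at 0.46 (adjusted p = 0.753).

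Between genotypes in tumours 1 of the 19 rose (Wee1, 0.59 ± 0.14) and 4 fell, against 15.2% and 18% of all genes (33.3% in all), and here too the share was not above that of all genes. Arntl2, a relative of Arntl, fell by 1.85 ± 0.24 (edgeR, adjusted p = 3.65e-07), from 5.88 ± 3.79 CPM (SD, n = 12) to 1.60 ± 0.440 CPM (n = 17), opposite in direction to Arntl. Bhlhe40 fell by 0.94 ± 0.17, Ciart by 0.80 ± 0.25 and Csnk1e, a kinase that phosphorylates PER proteins, by 0.53 ± 0.13. Among B cell-rich tumours alone Arntl2 was at -0.45 (adjusted p = 0.390) and Bhlhe40 at -0.13 (adjusted p = 0.693). In non-tumour tissue 0 rose and 2 fell (against 0.398% and 1.02% of all genes), Ciart by 1.83 ± 0.49 (adjusted p = 0.0453) and Arntl2 by 1.71 ± 0.46 (adjusted p = 0.0472). Both calls were lost when 1 library was left out, that of Ciart in 20 and that of Arntl2 in 21 of 39 fits (adjusted p up to 0.287 for Ciart and 0.729 for Arntl2). Without wild-type non-tumour replicates 1 and 4 the fold changes were -1.69 for Ciart (adjusted p = 0.406) and -1.08 for Arntl2 (adjusted p = 0.950). In the interaction 0 of the 19 passed by edgeR or DESeq2, 2 had an unadjusted p under 0.05 with either, and limma-voom with quality weights called 10.

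Counting could touch a few of these values. On the opposite strand Dbp shares 539 of its 2993 exonic bases with Sphk2, Cry2 295 of 6320 with D930015M05Rik and Arntl 33 of 7523 with Gm45355, and Nr1d1 overlaps Thra. The libraries are strand-specific per the labels, but the strand setting of the counting is not given in the sources used here.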

How the data were processed

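The deposited files were 39 tables of whole-number HTSeq read counts per gene, not normalized, with 49585 gene IDs each. Per the labels' protocols, total RNA was made into strand-specific TruSeq mRNA libraries. The submitters' processing notes name Trimmomatic 0.36 and TopHat2 2.0.14 beside HTSeq, with the build GRCm38. GENCODE M21 (GRCm38) gave symbols and coordinates. Libraries were grouped by the labelled genotype and tissue, and replicate numbers follow accession order and pair nothing.

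All 39 libraries entered 1 edgeR 4.0.16 quasi-likelihood fit in R 4.3.3 with 4 group means and TMM scaling. Low counts were removed with filterByExpr, leaving 16327 genes, among them all 10 clock genes. P-values were adjusted by Benjamini-Hochberg across those genes (threshold 0.05), and an SE is the size of a log2 fold change divided by the root of its F statistic. Correlations were computed on log2 CPM (prior count 2), with two-sided permutation tests (100000 resamples, smallest p 1e-05; exact for 9 libraries). The fitting and correlation steps were tested on simulated data.

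Alternatives were DESeq2 1.42.0, its size factors, limma-voom (limma 3.58.1) with quality weights, no count filter, libraries left out, fits of the groups compared, and B cell, position and epithelium covariates. The epithelium covariate and the splits by B cell genes (at 1000 summed CPM) were chosen after seeing the data. Named genes were the 10 members, up to 8 further clock genes per comparison past the threshold, and the 6 genes most and least like Arntl and Dbp among those averaging 1 or more on the log2 CPM scale and bearing no systematic name. Some genes that this rule names are not reported here. The members and lists were chosen with earlier results of these data known. Depth limits the shallow library most, where 1 count is 6.04 CPM.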

Additional observations from a re-analysis of the deposited data

Results flagged for a closer look

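Of 20 groups of 4 to 6 libraries examined for a library far from the others (10 genes in each of the 2 non-tumour tissues), 2 held one, and chance alone marks about 1 in 20 such groups. Per1 in wild-type non-tumour replicate 1 was at 6.04 CPM, where the other 3 libraries had 27.8 to 32.0 CPM, and its gap was 0.838 of the range of the group, above Dixon's 95% critical value. That value is 1 count in the shallow library. Cry2 in ex/ex non-tumour replicate 6 was at 29.3 CPM, where the other 5 libraries had 17.5 to 20.6 CPM, and its gap was 0.738 of the range, above that for 6 libraries. The same library had the lowest Dbp (4.46 CPM) and the lowest Per3 (5.01 CPM) of its group.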

How the results depend on the processing

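Limits first: sampling time, age and animal are not in the labels, 5 ex/ex libraries express a Y-linked gene that no wild-type library does, B cell content follows tissue in ex/ex, and wild-type non-tumour tissue has 4 libraries, of which 1 is shallow. Small log2 fold changes near 0 changed sign easily. Over the alternatives 1913 fold changes kept their direction and side of the threshold, 58 lost a call, 30 gained one and 99 changed sign. The cause of these changes was not tested. The tally pools all settings, among them 39 fits that each left out 1 library, and counts a result that stayed uncalled as kept. It therefore says little about the covariate and limma-voom fits, whose changes are given below. Interaction values of single genes other than Cry1 are not given.

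The number of clock genes called changed as follows. With limma-voom it was 2 in wild-type tumours, 5 in ex/ex tumours, 7 for genotype in tumours, 2 for genotype in non-tumour tissue and 1 for the interaction, but its library weights ran from 0.0849 to 5.31 and it called 8460 genes in the interaction against 33 by edgeR and 133 by DESeq2. In wild-type tumours it was 0 without a count filter, without wild-type non-tumour replicates 1 and 4, in a fit of the groups compared and without the B cell-rich wild-type tumours. In ex/ex tumours it was 4 with the B cell covariate. For genotype in tumours it was 2 with the position covariates and 0 among B cell-rich tumours. For genotype in non-tumour tissue it was 0 without wild-type non-tumour replicates 1 and 4 and in a fit of the groups compared, and 2 with the epithelium covariate. Leaving out 1 library gave 0 to 1 for wild-type tumours, 2 to 2 for ex/ex tumours, 3 to 5 for genotype in tumours, 0 to 1 for genotype in non-tumour tissue and 0 to 0 for the interaction. Correlated pairs numbered 9 to 16 in wild type and 20 to 29 in ex/ex tumours without 1 library. They numbered 4 in B cell-poor wild-type and 12 in B cell-rich ex/ex tumours, and 13 in ex/ex without replicates 1 to 3.

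Signs that changed in wild-type tumours against non-tumour tissue were Per2 (0.036 with the B cell covariate, 0.0059 with limma-voom, 0.081 with position covariates, 0.060 without B cell-rich wild-type tumours), Cry1 (0.037 with the B cell covariate, 0.23 with limma-voom, 0.19 without wild-type non-tumour replicates 1 and 4), Per3 (-0.0042 without those replicates), and Npas2 and Dbp (-0.11 and 0.078 with position covariates). In ex/ex tumours against non-tumour tissue the B cell covariate gave 0.68 for Npas2, 0.74 for Per2, 0.81 for Nr1d1 and 1.05 for Dbp, and the position covariates 0.13, 0.44, 0.60 and 1.24 for the same genes. There Per1 and Per2 gave 0.030 and 0.044 with DESeq2, 0.031 and 0.046 with its size factors, 0.035 and 0.053 without a filter, 0.013 and 0.066 without the 5 libraries with Y-linked expression, and 0.032 and 0.048 without B cell-rich wild-type tumours. Per2 gave 0.11 with the epithelium covariate and 0.011 in a fit of the groups compared, and Per3 -0.35 with limma-voom and -0.13 without B cell-poor ex/ex tumours. Between genotypes in tumours the B cell covariate gave 0.43 for Clock, 0.18 for Per2, 0.89 for Nr1d1 and 0.27 for Dbp, B cell-rich tumours alone gave 0.30 for Clock, 0.15 for Per2 and 0.42 for Nr1d1, position covariates 0.14 for Clock and 0.29 for Nr1d1, and the epithelium covariate 0.061 for Clock. Cry2 gave -0.22 with limma-voom, -0.061 without the 5 libraries with Y-linked expression, -0.033 without B cell-poor ex/ex and -0.028 without B cell-rich wild-type tumours. Cry1 in non-tumour tissue gave 0.034 with limma-voom. Leaving out 1 library gave ranges across 0 in wild-type tumours for Npas2 (-0.10 to 0.23), Per2 (-0.25 to 0.018), Per3 (-0.050 to 0.22) and Cry1 (-0.18 to 0.13), in ex/ex tumours for Arntl (-0.13 to 0.030), Per1 (-0.14 to 0.11), Per2 (-0.092 to 0.12) and Per3 (-0.098 to 0.20), and between genotypes in non-tumour tissue for Clock (-0.18 to 0.056) and Nr1d1 (-0.33 to 0.034). No paired analysis was possible because the labels give no replicate numbers.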
